A study of Mus musculus with 18 samples.

Results

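The genes of the major histocompatibility complex (MHC) class II presentation pathway were followed through B cells of WT and Sh3gl1-/- mice. Sh3gl1 encodes endophilin A2, a membrane-bending protein of endocytosis. The 10 genes were listed by name and matched to 10 of the 51912 gene identifiers in the table through the GRCm38 annotation. They comprise the class II chains H2-Aa, H2-Ab1 and H2-Eb1, the invariant chain gene Cd74, the peptide editor chains H2-DMa, H2-DMb1 and H2-DMb2, the editor's inhibitor chains H2-Oa and H2-Ob, and the transcriptional co-activator Ciita. All 10 passed the expression filter in every comparison.

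RNA was measured in 18 poly-A libraries in 6 groups of 3 from C57BL/6 animals. Transitional (TRANS) B cells, the immature cells newly arrived in the spleen, and follicular (FO) B cells, the main recirculating mature population, were taken ex vivo and untreated. The third state was FO cells cultured with CD40L, the T-cell signal received through CD40, for 14 h by the labels (the methods describe an overnight culture). Each state came from WT mice and from Sh3gl1-/- mice, which were compared with littermates and lack the gene in the whole body, so a difference between genotypes need not arise within the B cell. No FO cells cultured without CD40L were analysed, so the effects of the ligand and of culture cannot be told apart. In such bulk samples, fewer cells of a type and less RNA per cell cannot be told apart either.

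Class II molecules display peptides from endocytosed antigen to CD4+ T cells, and B cells depend on this display to receive help. The alpha and beta chains assemble on the invariant chain, which guides them to late endosomes and is cut there by proteases. H2-DM then exchanges the remaining invariant chain fragment for antigen peptides, and H2-O, which B cells make in particular, restrains H2-DM. CIITA does not bind DNA itself but is recruited by factors that sit on the S, X and Y boxes shared by the promoters of these genes. In C57BL/6 mice the class II molecule is I-A, made of H2-Aa and H2-Ab1, because the partner of H2-Eb1 is not expressed.

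The 8 H2 genes lie together on chromosome 17, from H2-Oa at chr17:34092340-34095234 to H2-Eb1 at chr17:34305867-34316674 (GRCm38). Sh3gl1, at chr17:56016750-56036635, is on the same chromosome, 21.7 to 21.9 Mb away. Ciita is on chromosome 16, at chr16:10480059-10528418. RefSeq promoter sequences of GRCm38.p6, from 250 bases before to 50 bases after a start site, covered 7 of the H2 genes in 8 windows. H2-Ab1 and Ciita had no window, and Cd74 was left out of these windows by choice. The stretches below are shown because they carry the same 5 letters at a similar place. In each, ATTGG, the core letters of the Y box, is in capitals on the gene's strand, and letters fitting AGNNACNGA, searched as an X box core, are in capitals as well where they occur. The stretches lie at chr17:34092291-34092355 (H2-Oa), chr17:34145114-34145178 (H2-DMb2), chr17:34153085-34153149 (H2-DMb1), chr17:34238803-34238867 (H2-Ob) and chr17:34305763-34305827 (H2-Eb1) on the plus strand, and at chr17:34287852-34287916 on the minus strand (H2-Aa).
H2-Oa: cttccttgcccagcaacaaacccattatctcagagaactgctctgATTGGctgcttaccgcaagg
H2-Ob: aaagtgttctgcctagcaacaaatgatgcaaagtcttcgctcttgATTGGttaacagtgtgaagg
H2-DMb1: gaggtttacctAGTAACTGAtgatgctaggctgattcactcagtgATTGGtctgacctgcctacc
H2-DMb2: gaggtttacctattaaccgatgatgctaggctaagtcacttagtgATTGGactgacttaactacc
H2-Aa: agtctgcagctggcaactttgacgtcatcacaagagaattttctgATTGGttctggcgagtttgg
H2-Eb1: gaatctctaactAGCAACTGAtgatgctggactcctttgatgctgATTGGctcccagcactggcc

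The first base of ATTGG stood 43 bases before the start in H2-Oa, 48 in H2-Aa, 57 in H2-Ob, 59 in H2-Eb1, 61 in H2-DMb1 and 90 in H2-DMb2. A match on the gene's strand starting between 100 and 40 bases before the start occurred in 7.71% of all 32851 windows. This range spans the positions of the genes shown, which were picked by such a match, so the share is a description and not a test. Anywhere in the window and on either strand, ATTGG was found in 7 of the 8 windows and in 37.4% of all windows. The longer CTGATTGG, which contains it, was found in 3 of the 8 and in 4.1% of all. AGNNACNGA was found in 4 of the 8 and in 17.7% of all. AGNNACNGA followed on the same strand by ATTGG, with 9 to 45 bases between their first bases, was found in 2 of the 8 (H2-DMb1 and H2-Eb1) and in 0.447% of all. Such matches describe letters and are not evidence of binding.

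Before the results, the labels were checked. Sh3gl1 had 377 to 929 counts in the 9 WT libraries and 1 to 22 in the 9 Sh3gl1-/- libraries, out of 12404688 to 18366078 counts per library. The B cell list (5 of 5 genes above 3 counts in each group) summed to between 4931 and 12941 TPM (a share of the library's transcripts per length). Genes of other cell types were present as well. Erythroid genes summed to 3274 to 20818 TPM in the ex vivo libraries and to 10.9 to 770 TPM after culture. Dendritic cell genes, of interest because these cells are rich in class II, summed to 4.19 to 15.5 TPM over 6 genes in all 18 libraries. The class II alpha pseudogene H2-Ea-ps had at most 15 counts in any library of either genotype.

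The class II pathway was among the most abundant mRNA content of these cells. The 10 genes took from 5.68% of the counts (a WT CD40L library) to 8.82% (a Sh3gl1-/- FO library). Cd74 was the highest or second highest gene by TPM in every library, at 37486 to 60911 TPM. It lies on chromosome 18. The I-A chains H2-Ab1 (5224 to 11968 TPM) and H2-Aa (4854 to 9075 TPM) came next, followed by H2-Eb1 (3020 to 5998 TPM). Of the genes for the editor, H2-DMb2 (1652 to 2666 TPM) was above H2-DMa (698 to 1148 TPM), and H2-DMb1 was the lowest H2-DM chain at 113 to 300 TPM. The inhibitor chains H2-Ob (158 to 945 TPM) and H2-Oa (219 to 778 TPM) had the largest ratios of highest to lowest library among the 10 genes, while in TPM units H2-Ab1 spanned most of the H2 genes. Ciita, which regulates the rest, was the lowest of the 10 at 50.9 to 125 TPM. These are levels per transcript length. Of the 50-base stretches of H2-DMb1, 22.7% also occur in other genes, as do 24.8% of those of H2-DMb2, so the split of reads between this pair is uncertain. Exons of H2-DMa overlap Brd2, those of H2-Oa overlap the antisense gene BC051537 and those of Ciita overlap Dexi, each on the opposite strand. Whether counting used strand is not stated, and reads of the overlaps may not be separable.

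**Figure D1:**
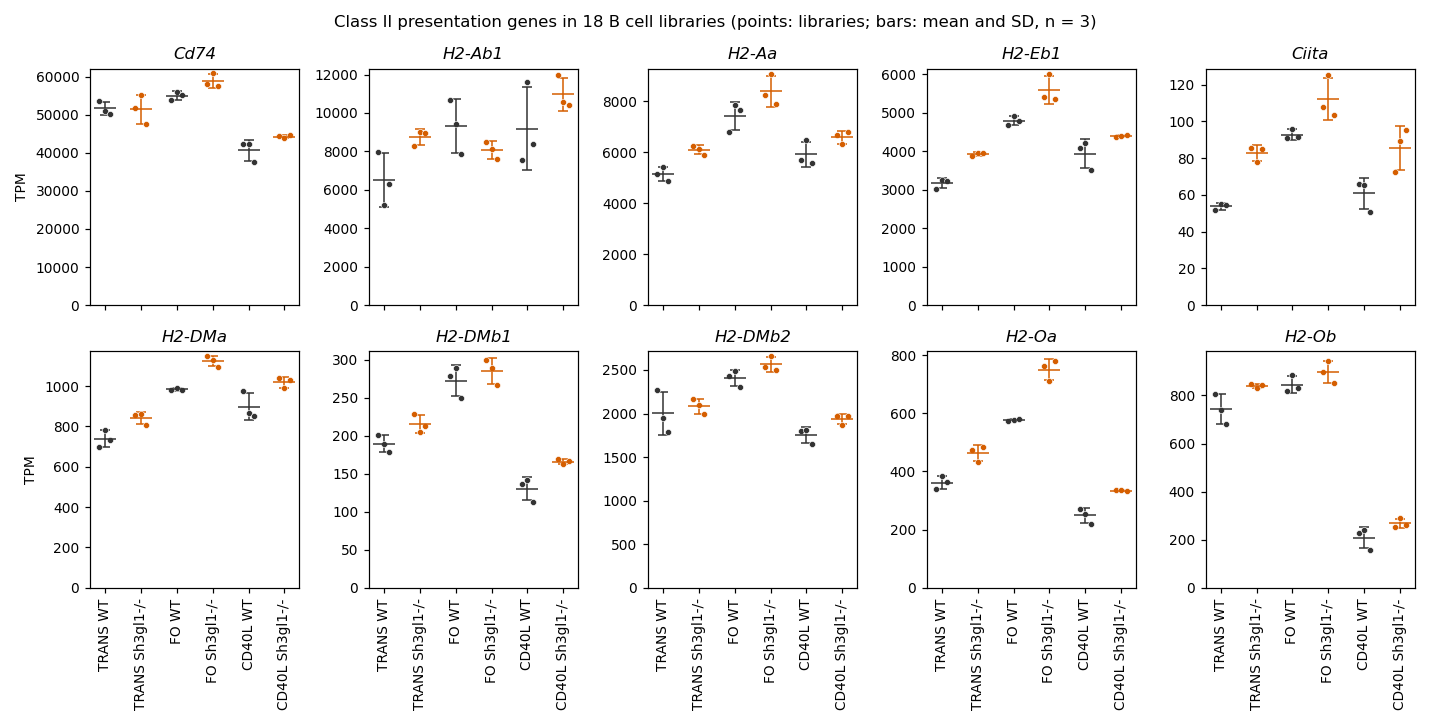
Level of each of the 10 genes in TPM (y axis, from 0) by library, in the 6 groups along the x axis, with WT in black and Sh3gl1-/- in orange. Points are libraries, and bars are the mean and SD of n = 3. H2-Oa and H2-Ob were lowest after CD40L culture, whereas H2-Ab1 had its highest library there at 11968 TPM.

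The first comparison asked how the pathway differed between TRANS and FO cells. In WT mice all 10 genes were higher in FO cells (edgeR quasi-likelihood test, Benjamini-Hochberg adjusted p under 0.05 over all genes tested), where 11.7% of the 14580 genes tested were higher. Ciita showed the largest difference, with 51.6, 55.2 and 54.4 TPM in the 3 TRANS libraries and 91.0, 96.0 and 91.3 TPM in the 3 FO libraries. The groups did not overlap, and the log2 fold change was 0.83 ± 0.076 (SE, n = 3 against 3, adjusted p = 9.32e-06). H2-Oa followed, at 338, 384 and 362 TPM in TRANS and 575, 576 and 579 TPM in FO libraries, a log2 fold change of 0.72 ± 0.086 (adjusted p = 5.99e-05). Its FO libraries were almost identical and all above the TRANS libraries. H2-DMb1 (0.65), H2-Eb1 (0.64), H2-Aa (0.57), H2-Ab1 (0.56) and H2-DMa (0.45) rose by intermediate amounts on the log2 scale. H2-DMb2 (0.31), H2-Ob (0.27) and Cd74 (0.14 ± 0.036, adjusted p = 0.012) rose least. Without the third FO WT library Cd74 was no longer called (log2 fold change 0.13, adjusted p = 0.052), nor was it under DESeq2 (adjusted p = 0.075) or with all 18 libraries in 1 fit (adjusted p = 0.0695), where H2-Ob was lost as well (adjusted p = 0.115). The median of the 10 was 0.565 and that of all genes tested 0.0305.

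In Sh3gl1-/- mice 8 of the 10 genes were higher in FO than in TRANS cells, beside 3.7% of all genes tested. H2-Oa was again far up, from 434 to 484 TPM in TRANS to 709 to 778 TPM in FO libraries (log2 fold change 0.71 ± 0.086, adjusted p = 0.000112). Ciita was at 85.6, 78.0 and 84.7 TPM in TRANS and 108, 125 and 103 TPM in FO libraries, a log2 fold change of 0.45 ± 0.076 (adjusted p = 0.00157). The genes not called were H2-Ob (0.16 ± 0.056, adjusted p = 0.0844) and H2-Ab1 (-0.10 ± 0.12, adjusted p = 0.69). H2-Ob was called without the first TRANS WT library (adjusted p = 0.0485), a library that enters this fit only through scaling, filter and the shared estimate of spread.

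For the difference between genotypes in this step, 0 of the 10 genes were called by edgeR, beside 0.0686% of all genes tested. At an unadjusted p under 0.05, 2 members were below 0. DESeq2 called the same number, H2-Ab1 (adjusted p = 0.0265) and Ciita (adjusted p = 0.0378). H2-Ab1 had the largest difference, with a step smaller by 0.66 ± 0.18 on the log2 scale in Sh3gl1-/- cells (adjusted p = 0.14). With the replicate number as a block within each genotype, which a pairing of TRANS and FO libraries would call for, H2-Ab1 was called (log2 difference -0.67, adjusted p = 0.0307) and the calls over all genes went from 10 to 99. H2-Ab1 was also called when the first TRANS WT library was left out (-0.83, adjusted p = 0.0391) and without the expression filter (-0.65, adjusted p = 2.52e-12). Ciita was second, at -0.38 ± 0.11 by edgeR (adjusted p = 0.165). H2-Ab1 stood at 7992, 5224 and 6292 TPM in TRANS WT, 8284, 9026 and 8970 in TRANS Sh3gl1-/-, 10656, 9434 and 7841 in FO WT and 8505, 8147 and 7595 in FO Sh3gl1-/- libraries. The WT libraries of this gene were more widely spread than the Sh3gl1-/- ones, with an SD of 1396 against 413 TPM in TRANS and 1412 against 458 TPM in FO cells. That difference in spread was not tested.

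**Figure D2:**
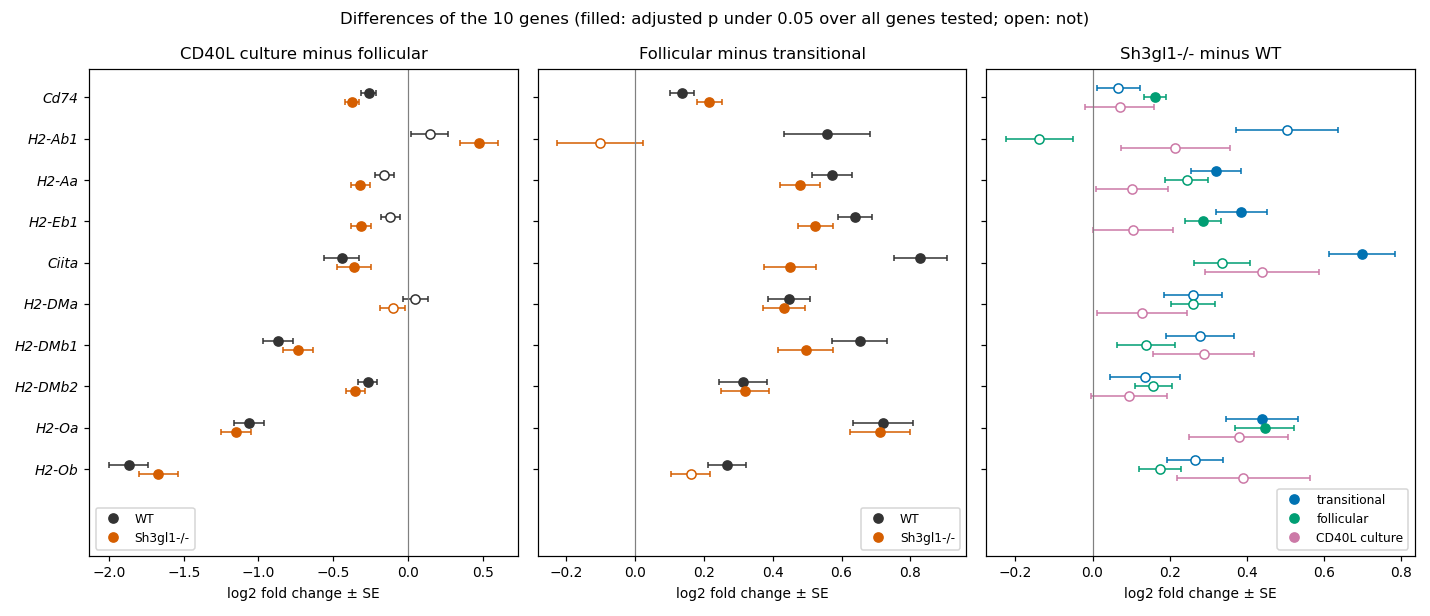
Log2 fold change with its SE (x axis) for each of the 10 genes (y axis) in CD40L culture minus FO, FO minus TRANS, and Sh3gl1-/- minus WT. Filled points passed an adjusted p of 0.05 and open points did not. The inhibitor chains H2-Oa and H2-Ob lie farthest to the left in the CD40L panel, and all but the H2-Ab1 value in FO cells lie right of 0 in the genotype panel.

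The second comparison asked how the pathway differed between FO cells ex vivo and after CD40L culture. The inhibitor chains H2-Ob and H2-Oa fell most. Of the editor chains they act on, H2-DMb1 and H2-DMb2 fell less and H2-DMa was not called. In WT cells 6 of the 10 genes were lower and 0 higher, beside 25.7% of 14460 genes lower and 23.6% higher. In Sh3gl1-/- cells 8 were lower and 1 was higher, beside 21.8% and 20.6% of all genes. The responses of the genotypes were each measured against their own FO libraries. The median of the 10 was -0.267 in WT and -0.355 in Sh3gl1-/- cells, and that of all genes -0.0803 and -0.0272.

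H2-Ob, the beta chain of the inhibitor, was at 817, 884 and 830 TPM in FO WT libraries and at 228, 239 and 158 TPM after culture. It fell by 1.87 on the log2 scale (SE 0.13, adjusted p = 9.57e-08). In Sh3gl1-/- libraries it stood at 896, 945 and 851 TPM and then at 253, 290 and 262 TPM, a log2 fold change of -1.67 ± 0.13 (adjusted p = 3.12e-07). In neither genotype did the groups overlap. H2-Oa, the alpha chain, went from 575, 576 and 579 TPM to 271, 254 and 219 TPM in WT (-1.06 ± 0.10, adjusted p = 1.31e-06). In Sh3gl1-/- cells H2-Oa went from 761, 709 and 778 TPM to 336, 334 and 332 TPM (-1.15 ± 0.10, adjusted p = 8.39e-07). Every cultured library was thus below every ex vivo FO library for both inhibitor chains.

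Of the editor chains, H2-DMb1 fell by 0.87 in WT and by 0.74 in Sh3gl1-/- cells on the log2 scale, and the more abundant H2-DMb2 fell by 0.27 and by 0.35. With the counts of the pair summed, since they share sequence, the call in each genotype was the same. H2-DMa did not pass the test: its FO WT libraries were at 980, 991 and 980 TPM and its cultured WT libraries at 973, 869 and 852 TPM (log2 fold change 0.05 ± 0.082 on TMM-scaled counts, adjusted p = 0.651). In Sh3gl1-/- cells H2-DMa was at -0.10 ± 0.082 (adjusted p = 0.337). TPM and the fitted fold change differ in sign for this WT value, and leaving out single libraries moved it between -0.05 and 0.11, so no direction is given.

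The I-A chains parted. H2-Ab1 was the gene that rose, from 8505, 8147 and 7595 TPM to 11968, 10546 and 10403 TPM in Sh3gl1-/- cells (0.48 ± 0.13, adjusted p = 0.00762). In WT cells its cultured libraries were widely spread at 7552, 11608 and 8408 TPM, overlapped the FO libraries and were not called (0.14 ± 0.13, adjusted p = 0.366). H2-Aa fell by 0.32 in Sh3gl1-/- cells (SE 0.065, adjusted p = 0.00132) and was at -0.16 ± 0.065 in WT cells (adjusted p = 0.057), where it was called without the first FO WT library (-0.21, adjusted p = 0.0215). H2-Eb1 fell by 0.32 in Sh3gl1-/- cells and was not called in WT cells (-0.12, adjusted p = 0.162). On TPM the cultured WT libraries lay wholly below the FO WT libraries for H2-Aa (5583 to 6477 against 6798 to 7847). The same held for H2-Eb1 (3511 to 4225 against 4673 to 4913), whereas on TMM-scaled CPM both overlapped. Cd74 fell in both, from 55010 ± 1074 to 40666 ± 2756 TPM in WT (SD, n = 3, log2 fold change -0.26) and from 58766 ± 1883 to 44248 ± 321 TPM in Sh3gl1-/- cells (-0.37). The fitted log2 fold changes are of TMM-scaled counts and need not match the TPM values beside them. Ciita was at 65.8, 65.5 and 50.9 TPM in cultured WT libraries and at 72.2, 89.3 and 95.2 TPM in cultured Sh3gl1-/- libraries, and was lower than in FO cells by 0.44 (adjusted p = 0.00534) and 0.36 (adjusted p = 0.0212) on the log2 scale. In Sh3gl1-/- cells the Ciita call was lost without the second FO library (adjusted p = 0.123) or without the first cultured library (adjusted p = 0.127).

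The difference between genotypes in the CD40L response gave 0 calls among the 10 genes by edgeR, 0 at an unadjusted p under 0.05 and 0 by DESeq2, beside 0% of all genes called. Over all genes 1278 passed an unadjusted p of 0.05 and 37 were called by DESeq2. The values of the members ran from -0.20 ± 0.094 (H2-Eb1) to 0.33 ± 0.18 (H2-Ab1) (SE, n = 3 in each of the 4 groups). The calls of H2-Ab1, H2-Aa and H2-Eb1 in Sh3gl1-/- but not in WT cells are therefore not shown to differ between the genotypes.

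Ratios of TPM within a library put the chains side by side. The H2-DMa to H2-Oa ratio was 2.06, 2.04 and 2.03 in TRANS WT, 1.82, 1.98 and 1.67 in TRANS Sh3gl1-/-, 1.71, 1.72 and 1.69 in FO WT and 1.51, 1.59 and 1.41 in FO Sh3gl1-/- libraries. After CD40L culture it was 3.59, 3.41 and 3.89 in WT and 3.09, 2.96 and 3.11 in Sh3gl1-/- libraries. The ratio was thus lower in FO than in TRANS cells of the same genotype, higher after culture by 2.12-fold in WT and 2.03-fold in Sh3gl1-/- cells, and lower in Sh3gl1-/- than in WT cells of each state. In all 7 comparisons the groups did not overlap, and the two-sided exact permutation test gave p = 0.1, the smallest that 3 against 3 libraries allow, so the design cannot reach 0.05. As exons of H2-DMa and H2-Oa overlap genes of the other strand, part of either value may be theirs, and this was not tested.

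The ratio of H2-DMb1 plus H2-DMb2 to H2-Ob was 3.18 ± 0.12 in FO WT and 3.18 ± 0.062 in FO Sh3gl1-/- cells (SD, n = 3). It was 8.48, 8.17 and 11.2 in cultured WT and 8.46, 7.02 and 8.16 in cultured Sh3gl1-/- libraries, 2.89-fold and 2.47-fold above FO cells. Each genotype's cultured libraries lay above its FO libraries (exact permutation p = 0.1), while the genotypes overlapped in FO cells and after culture. In TRANS cells this ratio was 2.89 to 3.06 in WT and 2.61 to 2.83 in Sh3gl1-/- libraries, which did not overlap. It was higher in FO than in TRANS cells of either genotype with no overlap (exact permutation p = 0.1), whereas the H2-DMa to H2-Oa ratio was lower. The ratio of Cd74 to the mean of the I-A chains was 8.93 ± 0.72 in TRANS WT, 6.92 ± 0.46 in TRANS Sh3gl1-/-, 6.59 ± 0.50 in FO WT and 7.14 ± 0.25 in FO Sh3gl1-/- cells. After culture it was 5.47 ± 0.87 in WT and 5.05 ± 0.26 in Sh3gl1-/- cells, apart from the FO libraries in Sh3gl1-/- (1.41-fold lower, exact permutation p = 0.1) and overlapping them in WT cells (exact permutation p = 0.2). The H2-Eb1 to H2-Ab1 ratio was highest in FO Sh3gl1-/- cells, at 0.69 ± 0.052, and 0.52 ± 0.087 in FO WT cells.

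**Figure D3:**
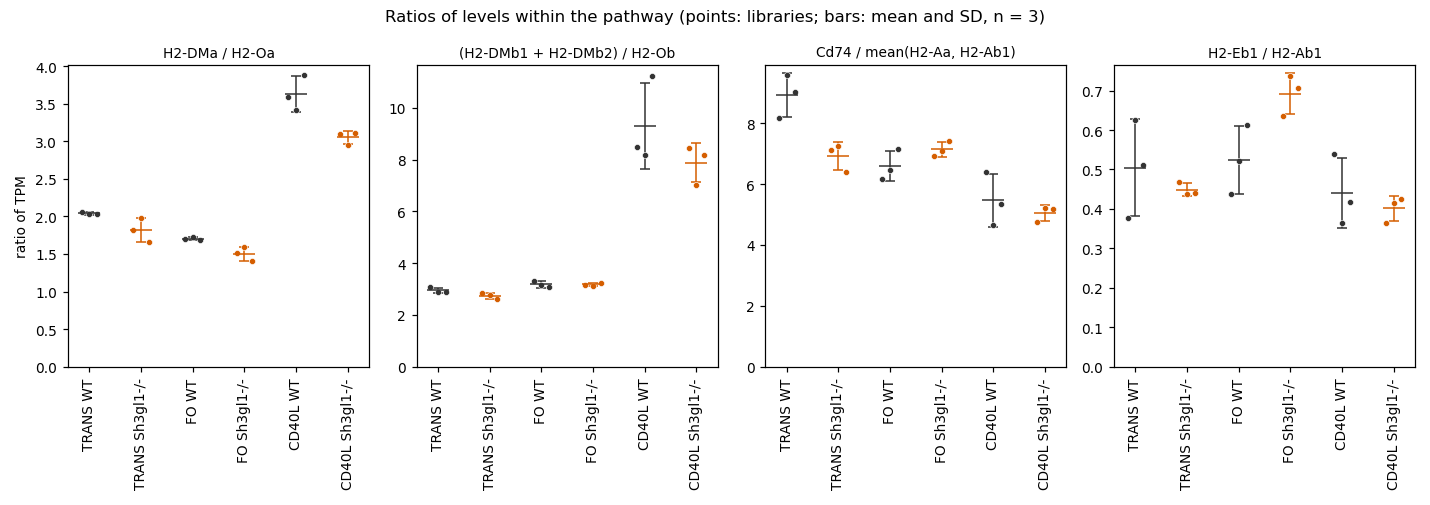
Ratios of TPM within a library (y axes, from 0) by group (x axis), with points for libraries and bars for mean and SD of n = 3, WT in black and Sh3gl1-/- in orange. The ratios of editor to inhibitor chains, in the 2 panels on the left, reach 2.96 to 3.89 and 7.02 to 11.2 in the cultured libraries, above all ex vivo libraries.

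The third comparison set Sh3gl1-/- against WT cells within each state. Most members were somewhat higher in Sh3gl1-/- cells, and few passed the test over all genes. In TRANS cells 4 of the 10 were called higher and 0 lower, beside 1.26% of 13774 genes higher. All 10 values were above 0, and for 8 the Sh3gl1-/- libraries lay wholly above the WT libraries on TMM-scaled CPM (counts scaled to library size), as they did for 13.7% of all genes. On TPM 8 did so as well. Ciita was at 51.6 to 55.2 TPM in WT and 78.0 to 85.6 TPM in Sh3gl1-/- libraries, a log2 fold change of 0.70 ± 0.086 (adjusted p = 0.00925). H2-Oa (0.44 ± 0.093, adjusted p = 0.0371), H2-Eb1 (0.39 ± 0.066, adjusted p = 0.0229) and H2-Aa (0.32 ± 0.065, adjusted p = 0.0336) were also called. H2-Ab1, at 0.50 ± 0.13, was not (adjusted p = 0.0687). It was called under DESeq2 (adjusted p = 0.00518) and without the expression filter (adjusted p = 2.47e-07). Leaving out single libraries gave H2-Ab1 an adjusted p of 0.0163 to 0.224. Cd74 was at 0.07 ± 0.055 (adjusted p = 0.52). The calls were not kept when libraries were left out. Without the third Sh3gl1-/- library 0 members were called, and without the first Sh3gl1-/-, the second WT or the third WT library 1 was. The log2 fold changes moved less, between 0.66 and 0.76 for Ciita, 0.38 and 0.51 for H2-Oa, 0.36 and 0.41 for H2-Eb1 and 0.28 and 0.36 for H2-Aa.

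In FO cells 3 of the 10 were called higher, beside 0.485% of 13610 genes, and 0 lower. H2-Oa was at 575 to 579 TPM in WT and 709 to 778 TPM in Sh3gl1-/- libraries (log2 fold change 0.45 ± 0.076, adjusted p = 0.0244). H2-Eb1 was at 4673 to 4913 TPM and 5359 to 5998 TPM (0.29 ± 0.046, adjusted p = 0.0177), and Cd74 at 53828 to 55927 TPM and 57386 to 60911 TPM (0.16 ± 0.028, adjusted p = 0.0261). On TMM-scaled CPM, the libraries of the genotypes did not overlap and Sh3gl1-/- was higher for 9 members, as for 7.9% of all genes, and on TPM for 7, with H2-DMb1 and H2-Ob then overlapping. H2-Ab1 overlapped on both scales, at -0.14 ± 0.087 (adjusted p = 0.644). The Cd74 call was lost under DESeq2 (adjusted p = 0.205) and with all 18 libraries in 1 fit (adjusted p = 0.237), where H2-Eb1 (adjusted p = 0.0686) and H2-Oa (adjusted p = 0.0579) were lost too. Leaving out any of the 3 WT libraries or the first Sh3gl1-/- library left 0 calls, and leaving out the third Sh3gl1-/- library left 2. Ciita was at 0.34 ± 0.072 (adjusted p = 0.0687). It was called under DESeq2 (adjusted p = 0.00167), without the expression filter (adjusted p = 0.00588) and with the replicate block (adjusted p = 0.041). Leaving out single libraries gave Ciita an adjusted p of 0.11 to 0.202. H2-Aa and H2-DMa, not called in the fit as reported, were called under the same alternatives as Ciita.

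After CD40L culture 0 of the 10 genes were called by edgeR or by DESeq2, and 3 passed an unadjusted p of 0.05, beside 0% of 13188 genes called higher. All 10 values were above 0, from 0.07 (Cd74) to 0.44 ± 0.15 (Ciita, adjusted p = 0.629). On TMM-scaled CPM the Sh3gl1-/- libraries lay wholly above the WT libraries for 4 members, Ciita, H2-Oa, H2-Ob and H2-DMb1, as for 6.24% of all genes. On TPM they did so for 8, all but H2-Aa and H2-Ab1, so this count depends on the scale. The median of the 10 was 0.30 in TRANS, 0.21 in FO and 0.172 in cultured cells, and that of all genes tested 0.0164, -0.00293 and 0.0135.

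The makeup of the libraries differed between the genotypes in the same comparisons. The transitional cell list (4 genes) summed to 234 to 296 TPM in TRANS WT and 117 to 187 TPM in TRANS Sh3gl1-/- libraries, and the follicular list (4 genes) to 2861 to 3699 and 3708 to 3956 TPM. In FO cells the transitional list summed to 122 to 150 TPM in WT and 79.9 to 80.9 TPM in Sh3gl1-/- libraries, with Rag1 and Rag2 at or under 3 counts. Nearly all of that sum was Cd24a (221 to 282 against 107 to 171 TPM in TRANS and 120 to 147 against 76.3 to 77.5 TPM in FO cells). Cd93 did not share its direction, at 10.7 to 13.4 against 9.9 to 15.6 TPM in TRANS and 2.14 to 2.66 against 2.41 to 4.58 TPM in FO cells. Erythroid genes (5 of 5 above 3 counts) summed to 5395 to 9433 TPM in TRANS WT and 10348 to 20818 TPM in TRANS Sh3gl1-/- libraries, and to 3274 to 8930 and 6883 to 19811 TPM in FO cells. Plasma cell genes (5) summed to 393 to 624 and 987 to 3914 TPM in TRANS and to 51.9 to 110 and 116 to 140 TPM in FO cells. Most of that sum was Jchain, at 379 to 610 against 974 to 3878 TPM in TRANS cells. In FO cells Jchain was at 39.97 to 92.78 against 99.18 to 121.32 TPM. Sdc1 was lower in Sh3gl1-/- FO libraries, at 0.85 to 1.62 against 0.36 to 0.76 TPM, and overlapped in TRANS cells. Prdm1 overlapped in both states. Xbp1 overlapped in TRANS cells and was higher in Sh3gl1-/- FO libraries, at 10.99 to 15.4 against 16.02 to 17.82 TPM. Neutrophil genes (6) summed to 98.3 to 174 and 223 to 1043 TPM in TRANS, 131 to 328 and 325 to 1498 TPM in FO and 15.02 to 73.7 and 92.0 to 329 TPM in cultured cells. T cell genes (6) were higher in Sh3gl1-/- libraries of each state, at 51.4 to 75.9 against 81.2 to 113 TPM in TRANS, 67.5 to 110 against 144 to 200 TPM in FO and 10.5 to 12.3 against 18.5 to 21.6 TPM in cultured cells. B cell genes (5) were lower, at 11351 to 12941 against 8161 to 11135 TPM in TRANS and 8605 to 8998 against 7357 to 7991 TPM in FO cells, and overlapped after culture. Marginal zone genes (4) were lower in sum, at 291 to 340 against 160 to 201 TPM in TRANS and 155 to 206 against 132 to 137 TPM in FO cells. Most of that sum was Cd1d1, at 215 to 269 against 117 to 156 TPM in TRANS cells. Cd9 was apart there as well, while Dtx1 and S1pr3 overlapped. In FO cells each of the 4 overlapped, with Cd1d1 at 91.7 to 146 against 74.1 to 93.9 TPM. Cd9 was at 19.8 to 26.7 against 19.3 to 29.8 TPM in FO cells. The part of these differences in the class II values was not tested. Dendritic cell genes stood at 4.19 to 8.06 TPM in TRANS WT, 5.99 to 15.5 in TRANS Sh3gl1-/-, 5.15 to 6.38 in FO WT and 6.59 to 9.54 TPM in FO Sh3gl1-/- libraries. The part of dendritic cells in the class II values was not tested either.

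Genes that act with the pathway were counted from lists of its regulators, proteases, surface partners and chromosomal neighbours. Among 11 genes of class II transcription, 3 rose and 3 fell with CD40L culture in WT cells and 4 rose and 2 fell in Sh3gl1-/- cells, beside 23.6% of all genes higher and 25.7% lower in WT and 20.6% and 21.8% in Sh3gl1-/- cells, so the list moved about as often as genes at large. Irf4, a factor of activated B cells and plasma cells, rose most in WT cells, from 66.4 ± 7.3 to 217 ± 17 CPM (SD, n = 3, log2 fold change 1.67, adjusted p = 5.5e-07), and by 1.67 in Sh3gl1-/- cells. Nfya, a subunit of the Y box factor, rose by 0.68 and 0.49, and Creb1, which can bind the X2 box, by 0.40 and 0.34 on the log2 scale. Rfx5, a subunit of the X box factor RFX, fell by 0.71 and by 0.55, and the Y box subunit Nfyb fell by 0.25 and by 0.44. Prdm1, the plasma cell factor that represses Ciita, rose in Sh3gl1-/- cells (1.81 ± 0.54, adjusted p = 0.0153). Its level was low, with at most 9 counts in FO and 31 in cultured Sh3gl1-/- libraries (0.13 to 0.25 and 0.45 to 0.96 TPM). Prdm1 overlapped between FO and cultured WT libraries (0.12 to 0.33 and 0.27 to 0.35 TPM). For the difference between genotypes in the CD40L response, 0 of the 11 genes were called. Between TRANS and FO cells, Rfx5 was higher in FO WT cells (0.59, adjusted p = 0.00408) and Nfyb lower (-0.64), and 0 of the 11 were called in Sh3gl1-/- cells, where Rfx5 and Nfyb were not called.

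Among 12 genes of endosomal proteolysis, which trim the invariant chain and antigen, 8 were lower and 1 higher in FO than in TRANS WT cells, and 7 were lower and 0 higher in Sh3gl1-/- cells. Of all genes tested, 14.2% were lower in FO WT and 6.71% in FO Sh3gl1-/- cells. Ctsb (cathepsin B) fell from 682, 839 and 549 CPM to 178, 205 and 194 CPM in WT cells, by 1.83 on the log2 scale (adjusted p = 2.59e-06), and by 1.81 in Sh3gl1-/- cells. Ctsd (cathepsin D) fell by 0.97 and by 1.17, and Ifi30, the thiol reductase GILT, fell by 0.96 and by 0.65. Ctss (cathepsin S), the main invariant chain protease of B cells, was higher in FO WT cells by 0.25 (adjusted p = 0.02). Macrophage or monocyte genes (6 of 6 above 3 counts in TRANS and FO cells) were lower in FO cells as well, at 322 to 379 TPM summed in TRANS WT and 95.9 to 126 in FO WT, and 272 to 501 in TRANS Sh3gl1-/- and 99.6 to 224 TPM in FO Sh3gl1-/- libraries. Among them Csf1r was at 12.3 to 20.9 TPM in TRANS WT and 1.4 to 2.09 TPM in FO WT libraries, and Cd68 at 39.4 to 59.4 and 10.8 to 13.4 TPM. Macrophages are rich in cathepsins, and the part of such cells in the protease values was not tested. With CD40L culture 2 of these 12 proteolysis genes rose and 4 fell in WT cells, and 2 rose and 6 fell in Sh3gl1-/- cells. Of all genes tested, 23.6% rose and 25.7% fell in WT cells, and 20.6% rose and 21.8% fell in Sh3gl1-/- cells. Ifi30 rose by 1.61 and 1.31 and Ctsz by 1.01 and 0.80, while Lgmn (asparaginyl endopeptidase) fell by 1.35 and fell by 1.39. Ctsl was at -1.49 and -1.21, and Cst3, the gene of the protease inhibitor cystatin C, at -0.75 and -0.91.

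Of the genes that set the surface life of class II, March1 and Cd82 changed by more with CD40L culture than any of the 10 members did. March1, the ubiquitin ligase that sends class II for degradation, was at 341, 393 and 396 CPM in FO WT and at 69.3, 78.7 and 67.2 CPM in cultured WT libraries. It fell by 2.43 on the log2 scale (SE 0.13, adjusted p = 5.89e-09) and by 2.12 in Sh3gl1-/- cells. Cd83, which opposes March1 at the membrane, rose from 780, 724 and 627 CPM to 2219, 2715 and 2876 CPM in WT cells (1.84 ± 0.12, adjusted p = 5.96e-08) and by 1.51 in Sh3gl1-/- cells. The cultured and ex vivo libraries of these genes were far apart. Of the tetraspanins, membrane organisers that associate with class II, Cd82 rose by 2.38 and 1.89 and Cd53 fell by 0.69 and by 0.63. In all, 3 of the 9 genes rose and 3 fell in WT cells, and 2 rose and 2 fell in Sh3gl1-/- cells, counts near the shares of all genes given above. Between TRANS and FO cells March1 was not called, Cd81 was lower in FO cells of WT and Sh3gl1-/- mice (-0.35 and -0.33), and Cd83 was higher in FO cells of Sh3gl1-/- mice (0.61, adjusted p = 0.00568).

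The 7 neighbours of the class II region did not share one pattern. H2-Eb2, a class II beta gene of low level, was higher in FO than in TRANS cells, at 52.8 to 62.0 against 15.3 to 24.7 CPM in WT (log2 fold change 1.504 ± 0.20, adjusted p = 0.000156) and by 0.96 in Sh3gl1-/- cells. The immunoproteasome genes Psmb8 and Psmb9 and the peptide transporter gene Tap1, all of class I presentation, fell by 0.40, by 0.41 and by 0.44 with CD40L culture in WT cells, where 4 of the 7 fell, the other being H2-Ea-ps at the counts given above. In Sh3gl1-/- cells 3 fell, among them Psmb9 (by 0.69) and Tap2 (by 0.78). Of all genes tested, 25.7% fell with culture in WT and 21.8% in Sh3gl1-/- cells. Between genotypes, Tap2 in TRANS cells (-0.43 ± 0.098, adjusted p = 0.046) was the only call among the genes tested from these lists of 39 in the 3 states.

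**Figure D4:**
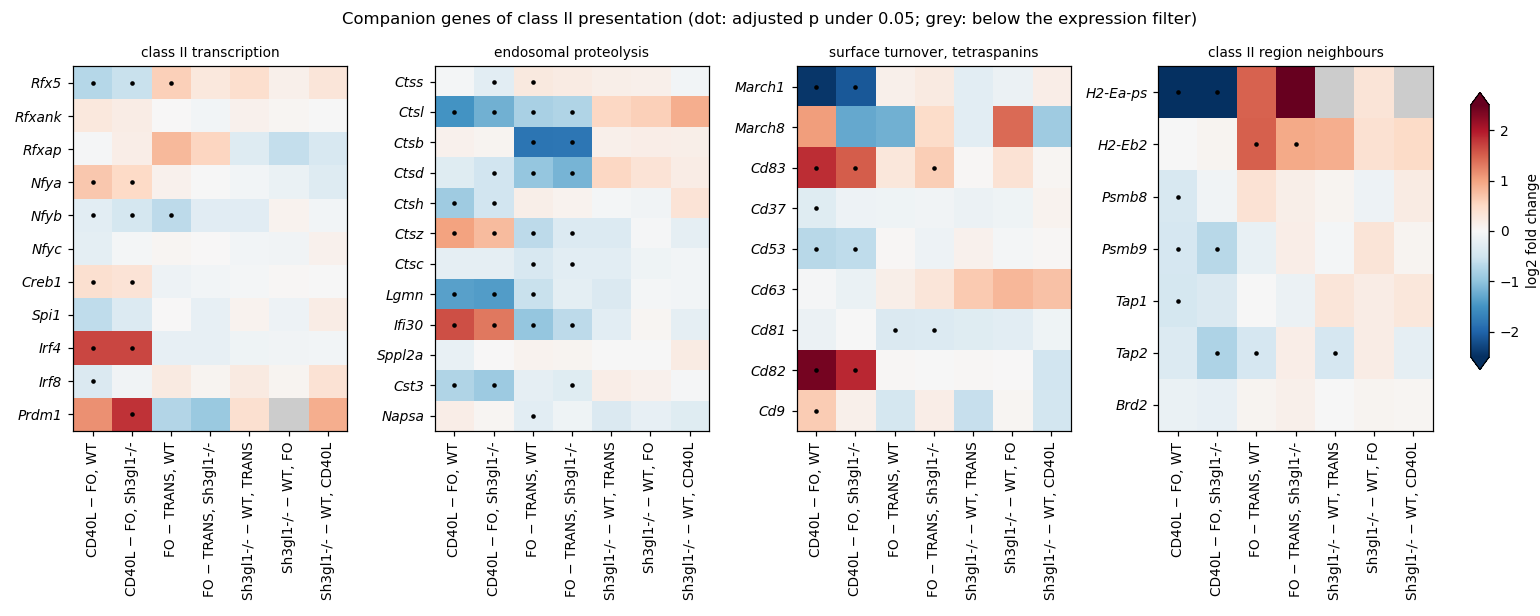
Log2 fold change (colour) of the genes of 4 companion lists (rows) in 7 comparisons (columns). A dot marks an adjusted p under 0.05 and grey a gene below the expression filter. The lowest values in the CD40L columns, -3.88 and -2.91, are among the class II region neighbours, which include H2-Ea-ps at 15 counts or fewer. In the other lists, March1 (-2.43 and -2.12) has the lowest and Cd82 (2.38 and 1.89) the highest CD40L values. Ctsb, Ctsd, Ctsl and Ctsz are blue in both FO minus TRANS columns.

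Over the 18 libraries the members fell into patterns of their own. On log2 CPM, H2-Aa and H2-Eb1 ran together (Pearson r = 0.974), as did H2-DMb1 and H2-Oa (0.965), and Cd74 was closest to H2-Oa (0.927). H2-Ab1 ran against H2-Ob (-0.521) and Cd74 (-0.269). Ciita was nearer to H2-Eb1 (0.899) and H2-Aa (0.88) than to H2-Ob (0.287). These values describe libraries that fall into 6 groups of 3, share the depth of a library and are not independent points. Among 15079 other genes, those closest to the mean of H2-Aa, H2-Ab1, H2-Eb1 and Cd74 were Gm9843 (0.906), Gm20429 (0.891), Wapl (0.863), Gm43162 (0.861) and Rbm4b (0.855). Those closest to Ciita were Gm43061 (0.928), Rbm4b (0.910), Stap1 (0.906), Rasal3 (0.885) and Mast4 (0.884).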

How the data were processed

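The authors deposited 1 table with expected counts, TPM and FPKM per gene for each of the 18 libraries, and 0 columns of values were left unused for want of a sample. The deposited expected counts are estimates that share out multi-mapping reads and are not normalized. The deposited TPM and the authors' FPKM are scaled to transcript length and library, and FPKM was not used. The submitters' processing notes name cutadapt 1.9.1, STAR 2.5.2a, RSEM 1.3.0 and GRCm38, whereas the methods name TopHat and Cufflinks. The labels name a stranded KAPA mRNA kit, the methods SMART-Seq HT with Nextera XT. Of the 51912 identifiers, 51719 were named by GENCODE M21.

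Expected counts were rounded and fitted with edgeR 4.0.16 in R 4.3.3 (TMM, filterByExpr by group, glmQLFit and glmQLFTest). CD40L responses were fitted on the 12 follicular libraries, the step from transitional to follicular cells on the 12 ex vivo libraries, and genotypes within each state on 6. Benjamini-Hochberg adjustment covered all genes of a fit, with calls at an adjusted p of 0.05. The SE is the log2 fold change divided by the square root of F. CPM used TMM sizes over all 18 libraries and log2 CPM a prior count of 2. Ratios used TPM with no pseudocount and two-sided exact permutation. The scripts were tested on simulated counts. Replicates of a group differed by more than sampling noise (chi-square per degree of freedom from 9.88 to 52.4 over 18 pairs).

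Whether replicate numbers pair libraries was checked from correlations of deviations from group means. For same-numbered TRANS and FO libraries these were 0.103 to 0.242 in WT and 0.115 to 0.263 in Sh3gl1-/- mice, and for FO and CD40L libraries 0.136 to 0.224 in WT and 0.0302 to 0.119 in Sh3gl1-/- mice. The numbers were taken to pair TRANS with FO libraries, and FO with CD40L libraries in WT mice only. No threshold was set and the values overlap, as 0.103 counts as paired and 0.119 does not, so the pairing is uncertain. The fits as reported do not use it.

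The members and lists were chosen with earlier results of these data known. All 10 members are named. From other lists, up to 3 called genes per direction were named by size, with others added after their values were seen, and the 5 genes most like each of 2 patterns. Alternatives were DESeq2 1.42.0, RLE size factors, no expression filter, the replicate block, all 18 libraries in 1 fit, H2-DMb1 and H2-DMb2 summed, and leaving out each library. A count of 3 was taken as the floor, which covers counting error only.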

Additional observations from a re-analysis of the deposited data

How the results depend on the processing

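Of 1428 single gene values under the alternatives, 1340 kept their sign and their side of the threshold, 41 lost and 24 gained a call, and 23 changed sign, 0 of them in a gene called as reported. The counts of members called with CD40L and between TRANS and FO cells within a genotype stayed within 1.5 times under every alternative run. The genotype counts did not, and the causes were not tested. Under DESeq2, 8 members were called higher in TRANS and 5 in FO Sh3gl1-/- cells (1361, 355 and 79 genes in all in TRANS, FO and cultured cells, against 514, 115 and 3), with 2 lower for the difference in the TRANS to FO step (365 genes) and 37 genes for the difference in the CD40L response. With every gene of at least 1 count these were 1426, 602 and 216 genes, 6 members in FO cells, 462 genes with 1 member, and 210 genes. With all 18 libraries in 1 fit they were 144, 49 and 82 genes, 0 members in FO cells and 0 genes for the step difference.

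Same-numbered libraries of different genotypes deviated together with correlations of -0.0875 to 0.101, and these were taken to share only a number. The replicate block gave 1 member (90 genes) in TRANS, 6 members (212 genes) in FO and 21 genes in cultured cells, and 20 genes for the step difference. Within genotype, the replicate block gave 99 genes and 1 member, H2-Ab1, and it changed no other member's call.

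Without 1 library, calls ran from 0 to 4 members and 28 to 479 genes in TRANS, from 0 to 3 members and 32 to 112 genes in FO and from 1 to 9 genes in cultured cells for genotype. They ran from 2444 to 3773 genes for the step in WT, 986 to 1647 in Sh3gl1-/- cells, 0 to 23 genes and 0 to 1 member for its difference, and 0 to 1 gene for the difference in the CD40L response. Values near 0 changed sign. In the CD40L response of WT cells, H2-Ab1 ran from -0.0183 to 0.26 and H2-DMa from -0.0503 to 0.11 on the log2 scale. In its genotype difference H2-Oa ran from -0.16 to 0.028 and Ciita from -0.0212 to 0.19, and H2-DMb1 was -0.0661 with its pair summed. In the step difference H2-DMa ran from -0.0607 to 0.0309, H2-DMb2 from -0.0881 to 0.0788 (-0.0082 with its pair summed) and H2-Oa from -0.0769 to 0.0673. There H2-DMa was 0.0064 under DESeq2, 0.0065 with RLE factors and 0.0029 in the 18-library fit, and H2-Oa 0.013, 0.013 and 0.0097. Each member had at least 2129 counts in each library. Whether depth limits the calls was not tested. With 3 libraries a group, permutation p cannot go below 0.1.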
